A study of Mus musculus with 11 samples.

Results

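Early Tet iTKO and early Ctrl mouse embryonic stem cell (mESC) populations were compared by the read depth of their genomes. The comparison held 4 of the 11 libraries of the study, chosen by their labels alone: 2 of Tet iTKO cells, before tamoxifen and after acute tamoxifen, against 2 of Ctrl cells at the same stages. Ctrl cells carried the Cre/ERT2 transgene and the Rosa26-LSL-H2b-Egfp reporter, and Tet iTKO cells carried both of these and floxed alleles of Tet1, Tet2 and Tet3. Cre/ERT2 is a recombinase that needs tamoxifen to act. The pre-treatment libraries came from cells labelled as not activated. The acute libraries came from cells given 1 µM tamoxifen for 2.5 days and then cultured for 4 days. The library titles say tamoxifen, the word used throughout here, and the study names the compound as 4-hydroxytamoxifen (4-OHT). All cells were grown in 2i medium (CHIR99021 and PD0325901) on mouse embryonic fibroblasts as feeders, and the labels give 1 sorting scheme (CD326+, GFP+, Thy1.2-, live) for all Ctrl and Tet iTKO cells. The reporter needs Cre activity to give GFP, and how cells that were not activated were sorted as GFP+ is not stated in the labels. Each early group was 1 library, and the labels do not say from which embryo or line it came. Ctrl embryos came from matings with wild-type C57BL/6 J mice, whereas the floxed Tet alleles were made in C57BL/6 NTac stem cells. Genotype, line and strain of origin therefore cannot be told apart in these libraries.

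TET enzymes oxidise 5-methylcytosine and thereby help to remove DNA methylation, and Tet1 and Tet2 are the main members in mESC. The read depth of a genomic interval in bulk DNA follows its mean copy number per cell, so that an interval with more copies in one line than in the other takes a larger share of the reads. Gene families in tandem arrays and segmental duplications differ in copy number between mouse strains, between colonies of one strain and between stem cell lines derived from them. The comparison therefore asks which intervals differed in depth between the lines before long-term culture, and whether the difference was already there before tamoxifen.

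Depth was summed over 47924 autosomal bins of about 50 kb, and over 4808 windows of 500 kb. The early libraries held 584 to 754 megabases of mapped sequence, which is 2299 to 2979 reads in the median window and 230 to 298 in the median bin. Relative depth is given on a log2 scale on which 0 is the median of the library. The depth of the X chromosome was 0.560 to 0.569 of the autosomal median in these 4 libraries. That of the Y chromosome was 0.027 to 0.038, against 0.463 to 0.470 in the 3 long-term Ctrl libraries and 0.549 to 0.558 in the 3 long-term Tet iTKO libraries. The labels give tamoxifen treatment and 30 days of long-term culture for all long-term Ctrl and Tet iTKO libraries, whereas the pre-treatment libraries were not activated. Culture time and Y chromosome depth cannot be told apart from stage, and every look at the long-term libraries below carries these differences. The labels do not say whether the early and the long-term libraries of a genotype came from the same mESC line or embryo. The early libraries held almost no Y chromosome sequence, which all long-term Ctrl and Tet iTKO libraries held. A contrast of early with long-term libraries may therefore be one of different lines. It is not read below as a change of 1 line over culture time. Pre-treatment and acute libraries of a line differed by slightly more than counting noise (chi-square per degree of freedom of 1.08 for Ctrl and 1.06 for Tet iTKO). The values for Tet iTKO against Ctrl were similar, 1.08 before treatment and 1.09 after acute tamoxifen. As pre-treatment and acute libraries of a line were not copies of each other, they were counted as 2 samples. Nothing in the labels says that they came from separate cultures, and p-values measure only the spread between these libraries, which may be technical.

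Few intervals differed between the lines. Of the 4808 windows, 25 passed the test (0.52%; limma, adjusted p under 0.05 over all windows), 15 with more depth in Tet iTKO and 10 with less. They lay in 23 stretches on 14 chromosomes. Their differences measured 0.12 to 0.41 in size with a median of 0.15, where the median over all windows was 0.022, and the standard error was 0.032 for each window. As this spread was pooled over all windows, the spread between libraries in a single window did not enter its p-value. An unadjusted p under 0.05 was found for 309 windows. In 24 of the 25, both Tet iTKO libraries lay on one side of both Ctrl libraries. Among bins, 34 of 47924 passed (0.0709%; limma, adjusted p under 0.05 over all bins), 23 higher and 11 lower in Tet iTKO, in 18 stretches on 11 chromosomes. Their sizes ran from 0.40 to 0.84 with a median of 0.51, against a median of 0.063 over all bins, and the lines were separate in all 34. Standard errors of bins lay between 0.089 and 0.109, so the spread of a single bin entered its p-value only a little. The unadjusted p was under 0.05 for 2538 bins. The count of windows fell to 14 when the spread was taken from all 11 libraries, and to 14 without the Ctrl pre-treatment or without the Ctrl acute library. The count of bins fell to 20 and 18 without these libraries.

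The called bins were richer in repeated sequence than the genome at large. In the 34 called bins, a median of 43.9% of the 50-base words occurred more than once in the genome, against 5.33% in 480 bins, every 100th of the genome. More than 20% of the words were repeated in 26 of the 34 called bins, and in 66 of the 480 others (13.8%). Of the 26, 8 lay in a single array, that of the Speer genes described below, and adjacent bins are not separate cases. A mean relative depth above 1.5 was found for 12 of the 34 called bins and for 0.444% of all bins, and for 7 of the 25 called windows and 0.562% of all windows. Of these 12 bins, 8 were again those of the Speer array. The mean was over both early lines, so depth in 1 line could lift it past the limit, as in the Btaf1 bin and 1 Ide bin (1.57 each). These shares are therefore descriptions. GC content did not set them apart, with a median of 41.2% in called bins and 41.4% in all bins. No protein-coding gene overlapped 15 of the 34 bins.

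**Figure D1:**
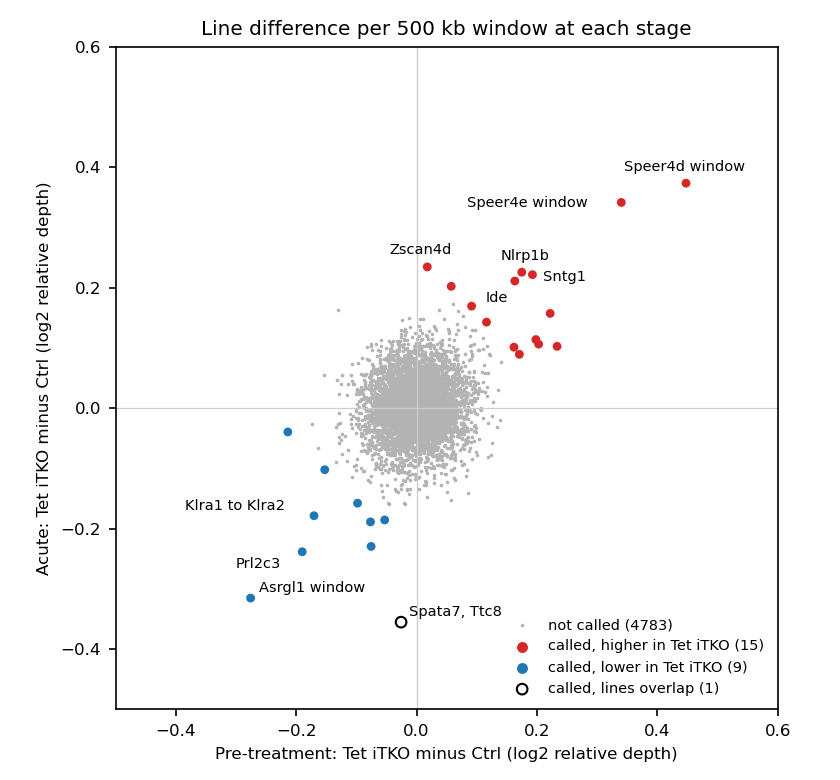
Each point is a 500 kb window, with the Tet iTKO minus Ctrl difference in log2 relative depth before treatment on the horizontal axis and after acute tamoxifen on the vertical axis (1 library per line at each stage). The 24 coloured windows were called and had separate lines, the open circle is the called window of Spata7 and Ttc8 where the lines overlapped, and grey points are windows not called. The windows of the Speer genes lie farthest to the upper right, the one next to Asrgl1 farthest to the lower left, and no called window lies in a quadrant of opposite signs.

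The line difference had the same sign at both stages in all 25 called windows and all 34 called bins, as a call from the mean of both stages favours. In single windows it was small at one of the stages, with -0.026 before and -0.36 after tamoxifen for that of Spata7 and Ttc8, and -0.21 before and -0.040 after it for that of Rnf150 and Ucp1. Each stage was therefore also read on its own. Before treatment, 19 windows differed by at least 0.15 between the 2 libraries (0.395%), and 18 of them had the same sign after acute tamoxifen, 9 with at least the same limit. After acute tamoxifen, 27 windows did (0.562%), and 25 of them had the same sign before treatment, 9 past the limit. Among bins, 120 differed by at least 0.4 before treatment (0.25%) and 81 of these kept the sign, 21 past the limit. After acute tamoxifen, 190 bins did (0.396%), with the same sign before treatment in 127 and past the limit in 21. Most of the single-stage differences in bins were thus not found at the other stage at that size. The SD of the difference over all bins was 0.128 before treatment and 0.135 after acute tamoxifen. How many bins this spread alone would put past the limit was not tested.

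No interval passed the test of a change in line difference from pre-treatment to acute. Each early group held 1 library in this test, so only large changes could have passed. Even the move of the line difference from -0.026 to -0.36 in the window of Spata7 and Ttc8 did not pass in the main fit. The lack of a call therefore does not show that line differences stayed the same. In the fit that borrows the spread of the long-term libraries, 0 of 4808 windows passed (0%; limma, smallest adjusted p = 0.0786, 250 with an unadjusted p under 0.05), and 0 of 47924 bins did (0%; limma, smallest adjusted p = 0.998, 2190 with an unadjusted p under 0.05). With a variance trend and robust estimation, 2 windows passed, and 2 passed without Tet iTKO long-term replicate 2. Over all windows, the SD of the line difference was 0.044 before treatment and 0.050 after it, about as large as that of acute minus pre-treatment within Ctrl (0.042) and within Tet iTKO (0.049). Across the 4808 windows, the differences at both stages correlated with a Pearson r of 0.16 and a Spearman rho of 0.089, and across the 47924 bins with an r of 0.036. These are descriptions across windows, which are not independent and share base composition and mappability within each library.

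The largest called stretch by number of bins was the Speer array on chromosome 5, chr5:14912509-15707363 (mm10), where the assembly has no bins between 15062666 and 15457667. Speer genes encode glutamate-rich proteins of the male germ line and lie in many near-identical copies. All 8 bins of the stretch were called. Their mean log2 relative depth was 1.81 in Ctrl before treatment and 1.85 after acute tamoxifen, and 2.39 and 2.38 in Tet iTKO. Both lines thus had several times the reads of a median bin there, and Tet iTKO had 1.47 times the depth of Ctrl. The differences of the 8 bins lay between 0.46 and 0.61 (largest limma adjusted p = 0.0052). Among the annotated genes are Speer4e, Speer4d, Gm17019, Gm21149, Gm21190 and Gm21083. Between 57.5% and 74.2% of the 50-base words in these bins were repeated, so many reads cannot be given to 1 copy, and the depth of a bin may hold reads of others. The bin of Speer4c, just beyond the stretch, differed by 0.25 (limma adjusted p = 0.789). Of the 16 bins with Speer genes anywhere in the autosomes, 3 were called (18.8%). The 250 bases upstream of Speer4e (chr5:14938476-14938725, minus strand), Gm17019 (chr5:15033008-15033257, minus strand) and Speer4c (chr5:15714272-15714521, minus strand) are shown, from RefSeq on GRCm38.p6, to let the likeness of the copies be seen. They are alike at 241 of 250 positions, and capitals mark the 9 positions where the 3 are not all the same.
Speer4e: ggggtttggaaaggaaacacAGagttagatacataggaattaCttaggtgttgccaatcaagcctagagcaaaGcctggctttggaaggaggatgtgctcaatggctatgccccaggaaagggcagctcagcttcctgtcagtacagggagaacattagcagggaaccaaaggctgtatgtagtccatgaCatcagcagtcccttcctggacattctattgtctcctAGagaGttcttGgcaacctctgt
Gm17019: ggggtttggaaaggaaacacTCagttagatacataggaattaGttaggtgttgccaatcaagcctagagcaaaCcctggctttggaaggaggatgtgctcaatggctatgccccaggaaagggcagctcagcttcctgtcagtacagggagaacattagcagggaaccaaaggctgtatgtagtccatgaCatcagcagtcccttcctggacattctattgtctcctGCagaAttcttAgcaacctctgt
Speer4c: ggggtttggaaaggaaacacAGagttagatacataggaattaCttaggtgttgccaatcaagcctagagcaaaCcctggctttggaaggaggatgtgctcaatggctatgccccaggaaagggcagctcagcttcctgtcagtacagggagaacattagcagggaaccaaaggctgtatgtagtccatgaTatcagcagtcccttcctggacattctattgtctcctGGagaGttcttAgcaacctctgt

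In the libraries outside the comparison, the Speer array separated the lines further. The long-term Tet iTKO libraries lay between 2.38 and 2.40, next to the early ones, whereas long-term Ctrl lay between 0.79 and 0.81, far below early Ctrl. On the linear scale the mean relative depth was 3.56 in early Ctrl, 5.22 in early Tet iTKO, 1.75 in long-term Ctrl and 5.26 in long-term Tet iTKO. The line difference was therefore smaller in the early than in the long-term libraries. It was smaller by 0.67 ± 0.034 (SE) for the 500 kb window from 15507606 to 16006999 that holds Speer4d (limma adjusted p = 9.41e-11). For the window from 14512088 to 15012613 that holds Speer4e, it was smaller by 0.42 ± 0.039 (SE; limma adjusted p = 1.49e-06). Early and long-term Ctrl also differed in Y chromosome depth, so these values do not show a change within 1 line.

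Next to the inflammasome sensor Nlrp1b on chromosome 11, early Ctrl had less depth than the other 8 Ctrl and Tet iTKO libraries. In chr11:71182006-71332007, a stretch of 3 called bins, the mean log2 relative depth was -0.65 in Ctrl before treatment and -0.62 after acute tamoxifen, against -0.02 and 0.02 in Tet iTKO. The 6 long-term libraries of both lines lay between -0.05 and 0.01. Tet iTKO had 1.55 times the depth of Ctrl, and the 3 bins differed by 0.51, 0.76 and 0.63 (limma adjusted p of at most 0.00127). The middle bin lies upstream of Nlrp1b and holds no protein-coding gene, and both early Ctrl libraries reached their lowest values there, -0.85 and -0.72. The bins on both sides of the stretch differed by 0.22 (limma adjusted p = 0.882) and 0.073 (limma adjusted p = 0.978). Unlike in the Speer array, at most 29.15% of the words in these bins were repeated. The sequence upstream of Nlrp1b (RefSeq on GRCm38.p6, chr11:71230734-71230983, minus strand) lies in the first of the 3 bins, at its border with the middle one, and is given as the annotated start nearest to the lowest depth.
Nlrp1b: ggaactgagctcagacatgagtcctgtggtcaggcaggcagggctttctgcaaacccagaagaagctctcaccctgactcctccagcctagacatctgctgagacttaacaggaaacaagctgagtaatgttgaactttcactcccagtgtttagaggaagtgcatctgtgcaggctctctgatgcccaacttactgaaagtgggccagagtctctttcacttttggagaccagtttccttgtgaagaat

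On chromosome 19, the gene of the insulin-degrading enzyme, Ide, had less depth in early Ctrl. Over the 2 called bins, chr19:37273645-37373677, Ctrl was at 0.21 before treatment and at 0.24 after acute tamoxifen, and Tet iTKO at 0.81 and 0.79. The 6 long-term libraries lay between 0.72 and 0.82, so that only the early Ctrl libraries of these 10 lacked the higher depth. The ratio of Tet iTKO to Ctrl was 1.49. Weighted over the 3 bins of the gene, Ide differed by 0.58 (smallest limma adjusted p of its bins = 3.77e-05). The first of its bins, which was not called, differed by 0.39 (limma adjusted p = 0.0585). Nearer to Fgfbp3, the bin chr19:36923530-36973545 over Btaf1, a remodelling ATPase that takes the TATA-binding protein off DNA, behaved alike, with 0.41 and 0.34 in Ctrl, 0.93 and 0.85 in Tet iTKO and 0.88 to 0.98 in the long-term libraries. It differed by 0.52 ± 0.090 (SE; limma adjusted p = 0.000554). Between them, the 5 bins over Cpeb3 and March5 differed by -0.029 to 0.087 and none passed. Repeated words made up 4.02% of the Btaf1 bin and 5.09% and 8.10% of the Ide bins, near the median of the genome. Ide and its neighbour Fgfbp3 are known to vary in copy number among C57BL/6 mice. Fgfbp3, in a bin of its own at the edge, differed by 0.14 (limma adjusted p = 0.966). The sequence upstream of Ide (RefSeq on GRCm38.p6, chr19:37334545-37334794, minus strand) is shown as an example of sequence in this stretch whose words are mostly unique in the assembly.
Ide: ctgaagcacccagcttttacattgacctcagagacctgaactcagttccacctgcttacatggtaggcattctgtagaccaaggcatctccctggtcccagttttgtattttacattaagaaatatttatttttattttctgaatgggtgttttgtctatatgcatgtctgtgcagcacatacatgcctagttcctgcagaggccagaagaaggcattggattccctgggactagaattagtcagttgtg

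**Figure D2:**
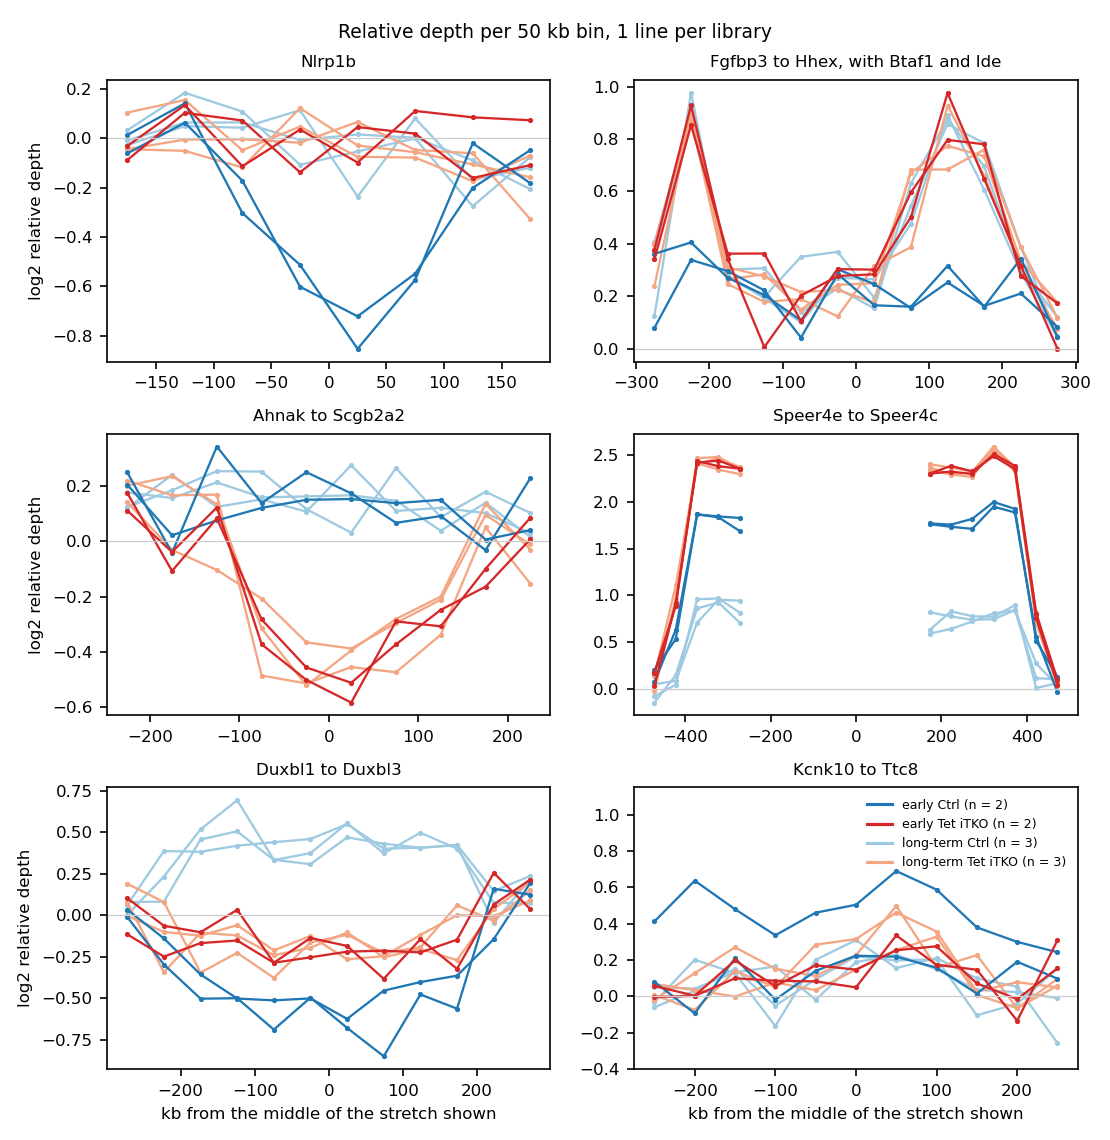
Log2 relative depth per 50 kb bin around 6 stretches, with distance from the middle of the stretch in kb on the horizontal axis and 1 line per library (early Ctrl dark blue, early Tet iTKO red, long-term Ctrl light blue, long-term Tet iTKO light red). Early Ctrl falls alone to -0.85 next to Nlrp1b and stays flat where the other 8 libraries peak at Btaf1 and Ide, all Tet iTKO libraries fall together between Asrgl1 and Scgb2a2, and 1 Ctrl library stands above the rest from Kcnk10 to Ttc8.

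Other stretches of 1 or 2 called bins had less depth in early Ctrl than in early Tet iTKO. The bin with the largest difference of all, chr19:12165378-12215393, holds the olfactory receptor gene Olfr1431. Ctrl was at -0.63 before treatment and -0.71 after acute tamoxifen, and Tet iTKO at 0.18 and 0.17, within the range of 0.10 to 0.23 of the 6 long-term libraries. The difference was 0.84 ± 0.090 (SE; limma adjusted p = 2.81e-09), a depth ratio of 1.79. It was the 1 called bin among 620 that hold olfactory receptor genes (0.161%, against 0.0709% of all bins). On chromosome 7, chr7:26823141-26923201 covers Cyp2a5, a cytochrome P450 that hydroxylates coumarin and nicotine, and the pseudogene Cyp2a21-ps. Ctrl was at -0.43 and -0.48 there, Tet iTKO at 0.07 and 0.08 and the long-term libraries between -0.12 and 0.08. The 2 bins differed by 0.48 (limma adjusted p = 0.0035) and 0.58 (limma adjusted p = 6.05e-05), and the neighbour with Cyp2a22 by 0.34 (limma adjusted p = 0.315). The called bin on chromosome 1 at chr1:88247242-88297244 overlaps Hjurp, the chaperone that loads the centromeric histone CENP-A, the cold receptor gene Trpm8 and Mroh2a. Depth was high there in every library, at 1.64 and 1.79 in Ctrl, 2.17 and 2.11 in Tet iTKO and 2.06 to 2.18 in the long-term libraries. The difference was 0.43 ± 0.090 (SE; limma adjusted p = 0.02), and 2.23% of the words were repeated.

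The Prl2c cluster on chromosome 13 was the counterpart in the other direction. Prl2c genes encode proliferins, prolactin-like hormones of the placenta. The window chr13:12530264-13029984 was at 0.94 and 0.97 in Ctrl and at 0.75 and 0.73 in Tet iTKO, with 0.74 to 0.81 in the long-term libraries. Early Ctrl thus lay above all others, and the difference was -0.21 ± 0.032 (SE; limma adjusted p = 5.40e-08). The called bin, chr13:12880069-12930040, lies between Prl2c3 and Prl2c2 and differed by -0.40 (limma adjusted p = 0.0465). The 5 bins next to it, which reach past Prl2c3 and Prl2c2, differed by -0.18 to -0.38, and none of these passed.

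A part of the differences was shared with the long-term libraries. Between Asrgl1, an asparaginase, and the secretoglobin gene Scgb2a2 on chromosome 19, 5 adjacent bins without a protein-coding gene (chr19:9164390-9414471) had less depth in Tet iTKO. Ctrl was at 0.14 at both stages and Tet iTKO at -0.38 and -0.41, with 0.14 to 0.15 in long-term Ctrl and -0.45 to -0.29 in long-term Tet iTKO. The lines were separate at each of the stages, and the depth ratio was 0.689 in the early libraries. The 5 bins differed by -0.40 to -0.71 (limma adjusted p of at most 0.0465). In none of the 5 was the early difference distinguishable from the long-term one (limma, smallest adjusted p = 0.995), the differences of both lying between -0.14 and 0.090 with standard errors of 0.114 to 0.119.

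**Figure D3:**
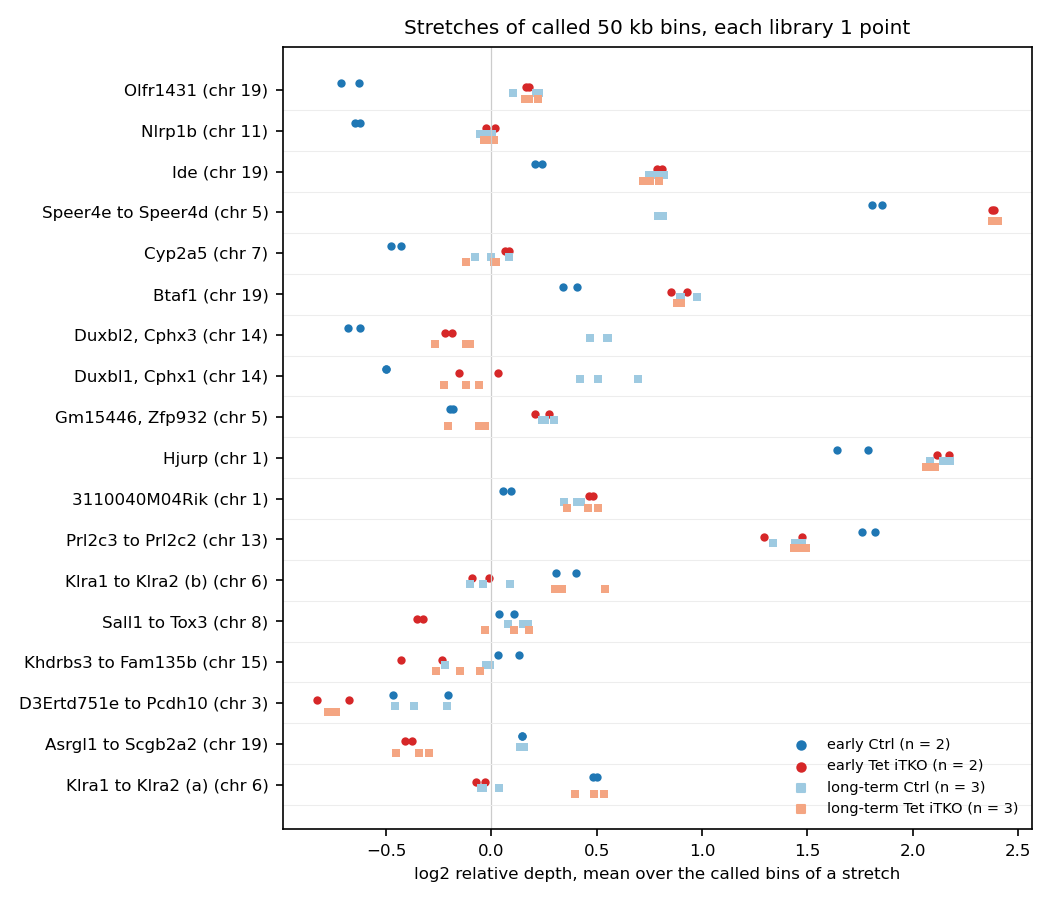
Mean log2 relative depth over the called bins of each of the 18 stretches, in order of the early difference, with 1 point per library (early libraries as circles, long-term ones as squares, Ctrl in blue and Tet iTKO in red). Early Ctrl stands apart from all other libraries at Olfr1431, Nlrp1b, Ide, Cyp2a5, Btaf1, Hjurp and the Prl2c genes among others, and the order of Ctrl and Tet iTKO in the long-term libraries is opposite to the early one at Klra1 to Klra2.

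At other loci the early and the long-term difference had opposite signs. Between Klra1 and Klra2 on chromosome 6, in the cluster of Ly49 receptor genes of natural killer cells, the bin chr6:130815234-130865220 was at 0.48 and 0.50 in early Ctrl and at -0.07 and -0.03 in early Tet iTKO. Long-term Ctrl lay between -0.05 and 0.03, as early Tet iTKO did, and long-term Tet iTKO between 0.40 and 0.53, as early Ctrl did. The early difference was -0.54 (limma adjusted p = 0.000222) and the long-term one 0.49. In the window around it, from 130515312 to 131015180, the early difference was lower by 0.37 than the long-term one (limma adjusted p = 3.75e-05). On chromosome 5, the bins of the zinc finger genes Gm15446 and Zfp932 (chr5:109925011-110024925) were at -0.20 and -0.18 in early Ctrl, at 0.21 and 0.27 in early Tet iTKO, at 0.24 to 0.30 in long-term Ctrl and at -0.20 to -0.03 in long-term Tet iTKO. Their early differences were 0.42 (limma adjusted p = 0.0287) and 0.44 (limma adjusted p = 0.0125). The long-term difference was -0.54 for Gm15446 and -0.18 for Zfp932, and the latter did not pass (limma adjusted p = 0.789), with long-term Tet iTKO replicate 1 at 0.22 among the Ctrl values of 0.19 to 0.23.

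The homeobox genes Duxbl and Cphx on chromosome 14 lie in an array of 8 bins, chr14:25902793-26298546, and had more depth in early Tet iTKO than in early Ctrl. Duxbl is a relative of the double homeobox gene Dux, and Cphx genes encode homeobox proteins of oocytes and early embryos. All 8 bins were higher in Tet iTKO with separate lines, by 0.23 to 0.45, and those of Duxbl1 with Cphx1 (0.44; limma adjusted p = 0.0139) and Duxbl2 with Cphx3 (0.45; limma adjusted p = 0.0083) were called. The mean over the 8 bins was -0.60 and -0.47 in early Ctrl, -0.21 and -0.19 in early Tet iTKO, 0.44 to 0.45 in long-term Ctrl and -0.20 to -0.14 in long-term Tet iTKO. Tet iTKO libraries of all stages thus lay close together, and Ctrl lay below them in the early and above them in the long-term libraries. Repeated words made up 96.3% and 99.9% of the 2 called bins, so that reads of the copies cannot be told apart. The 250 bases upstream of Cphx2 (RefSeq on GRCm38.p6, chr14:26082043-26082292, plus strand) are the same as those of Cphx3 (chr14:26221654-26221903, plus strand) at all 250 positions and are shown once to make this visible.
Cphx2 and Cphx3: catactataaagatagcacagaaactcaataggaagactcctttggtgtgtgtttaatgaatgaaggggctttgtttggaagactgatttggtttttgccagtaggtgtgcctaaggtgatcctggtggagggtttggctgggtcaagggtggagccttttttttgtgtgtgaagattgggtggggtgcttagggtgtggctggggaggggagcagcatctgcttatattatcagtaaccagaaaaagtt

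The long-term libraries were looked up for all called intervals. With 3 long-term libraries per line, 21 windows (0.437%) and 60 bins (0.125%) were called. Of the 25 early windows, 5 were among them, which is 20% of the early and 23.8% of the long-term ones, 3 in the same and 2 in the opposite direction. Of the 34 early bins, 19 were among them, 55.9% of the early and 31.7% of the long-term ones, 14 in the same and 5 in the opposite direction. The 14 were the 8 Speer bins, the 5 adjacent bins between Asrgl1 and Scgb2a2 and the bin between D3Ertd751e and Pcdh10 on chromosome 3. The 5 lay between Klra1 and Klra2, at Gm15446 and in the Duxbl array. Adjacent bins of a locus are not separate cases. The test of early minus long-term line difference called 17 windows (0.354%) and 38 bins (0.0793%). Of the 25 early windows 9 passed it, and of the 34 early bins 21 did. As the intervals were chosen for their early difference, these are descriptions.

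**Figure D4:**
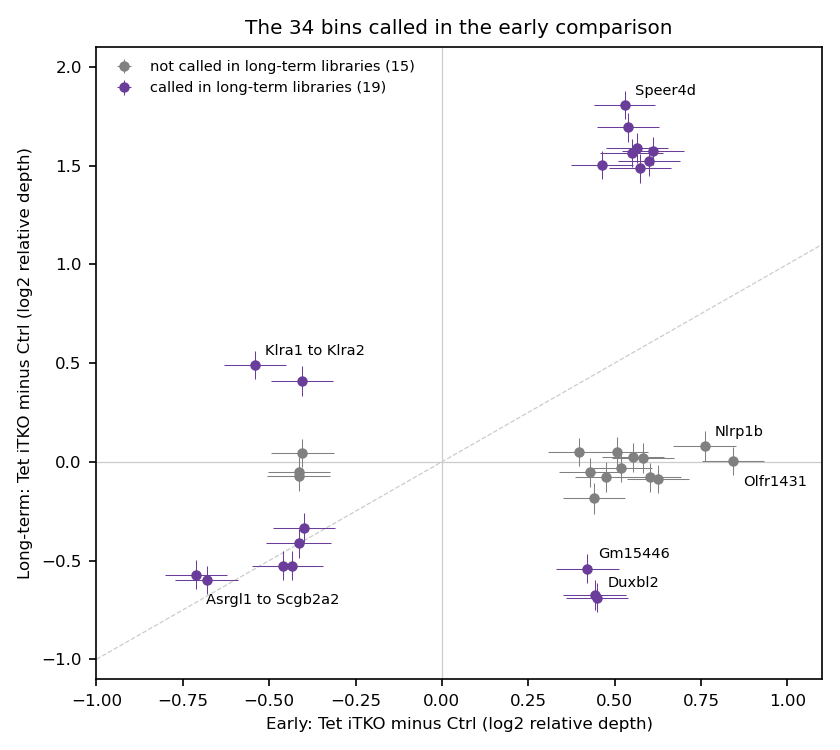
Tet iTKO minus Ctrl difference in log2 relative depth for the 34 bins called in the early comparison, with the early difference on the horizontal axis and the long-term difference on the vertical axis, bars giving the standard error of each and the dashed line marking equal differences. The 15 grey bins, which were not called in the long-term libraries, lie between -0.18 and 0.079 on the vertical axis, the Speer bins lie at 1.49 to 1.81 on it, and the bins between Asrgl1 and Scgb2a2 lie near the dashed line.

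In many called intervals it was early Ctrl that stood apart. In 14 of the 34 called bins both early Ctrl libraries, but not the early Tet iTKO ones, lay on one side of the other 8 Ctrl and Tet iTKO libraries, 12 times below and 2 times above them. Over all bins this held for 4.44%. Early Tet iTKO stood apart in 3 of the 34 (4.72% of all bins), both lines in 1 and neither in 16. Among windows, early Ctrl stood apart in 12 of the 25 called ones (4.99% of all windows) and early Tet iTKO in 2 (4.83%). Called intervals were chosen for the distance between the early lines, which itself favours a pair that stands apart. The shares over all intervals are therefore no measure of what selection alone gives, and these counts are descriptions. One of the bins where early Tet iTKO stood apart lies between the transcription factor genes Sall1 and Tox3, picked out once its values were known. At chr8:89095206-89145212, Ctrl was at 0.04 and 0.11, Tet iTKO at -0.33 and -0.35 and the long-term libraries between -0.03 and 0.18, with a difference of -0.41 (limma adjusted p = 0.0304).

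Of the stretches called in bins, 3 more lay outside the rule for naming and are given with their values known. The bin with 3110040M04Rik on chromosome 1 differed by 0.40 (limma adjusted p = 0.049). The bins between D3Ertd751e and Pcdh10 on chromosome 3 and between Khdrbs3 and Fam135b on chromosome 15 differed by -0.41 each (limma adjusted p = 0.0465 and 0.0385). In the first of these, the long-term libraries of the lines were separate as well, at -0.46 to -0.21 in Ctrl and -0.77 to -0.74 in Tet iTKO.

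Some windows were called in which no single bin was. The window chr1:8545226-9044795, with Sntg1, a syntrophin of the nervous system, was at 0.10 and 0.03 in Ctrl and at 0.29 and 0.25 in Tet iTKO, and the long-term libraries lay between 0.17 and 0.29. The difference was 0.21 ± 0.032 (SE; limma adjusted p = 1.83e-07), and all 11 bins of this region were higher in Tet iTKO, by 0.059 to 0.33. On chromosome 12, 2 adjacent windows that hold the imprinted genes Dlk1, a ligand-like regulator of Notch signalling, and Rtl1, a retrotransposon-derived gene of the placenta, differed by -0.13 and -0.15 (limma adjusted p = 0.0142 and 0.000921). Ctrl was at -0.05 before treatment and near 0 after acute tamoxifen in both, and Tet iTKO at -0.13 and -0.12 before and -0.19 and -0.22 after it. Without the Tet iTKO acute or without the Ctrl acute library neither window passed.

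The other 10 called windows also lay outside the rule for naming and are given with their values known. They had differences of 0.12 to 0.13 in size, with 6 higher and 4 lower in Tet iTKO, and 3 of the 10 also passed with the spread from all libraries, those of Elmo1, Foxc1 and Duxbl2. With stage as a block, 4 did not pass, those of Zscan4 (limma adjusted p = 0.172), Col6a3 (0.0889), Rnf150 (0.122) and Adgrl2 to Adgrl4 (0.122). The Zscan4 window, chr7:11034623-11533932, which did not pass with the spread from all libraries either (limma adjusted p = 0.175), holds Zscan4d, Zscan4e and Zscan4f, genes of the cluster that marks a cleavage-like state of mESC. Ctrl was at -0.11 before treatment and -0.15 after acute tamoxifen, Tet iTKO at -0.10 and 0.08, and the long-term libraries at -0.12 to 0.04. The Tet iTKO acute library was thus the highest of the 10 Ctrl and Tet iTKO libraries, and the line difference was 0.018 before treatment and 0.23 after it. This change between stages did not pass, in a test with 1 library per early group that could miss a change of this size. Another overlaps the Duxbl array and another Olfr1431, both described above. The rest hold Col6a3 and Mlph on chromosome 1, Pde1c on chromosome 6, Rnf150 and Ucp1 on chromosome 8, Elmo1 on chromosome 13, Foxc1 and Foxf2 on chromosome 13, Vegfa and Hsp90ab1 on chromosome 17, and no protein-coding gene between Adgrl2 and Adgrl4 on chromosome 3.

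Besides the Zscan4 window, in which the Tet iTKO acute library stood above the other 3, single early libraries or very deep bins weighed on 4 more called windows. The windows at the start of chromosome 9 (from 3000001), on chromosome 2 (from 98513418) and on chromosome 14 (from 19019224) had a mean relative depth of 18.5, 2.59 and 3.47. They were called at 0.17, 0.16 and 0.15, but differed by 0.080, 0.099 and 0.090 without the Ctrl pre-treatment library and then did not pass. They did not pass in the robust fit or with the spread from all libraries either. The window chr12:98513637-99013993 with Kcnk10, Eml5 and the cilium genes Spata7 and Ttc8 was likewise picked out with its values known. It was called at -0.19 through the Ctrl acute library, which was at 0.46 over its 11 bins against 0.073 to 0.16 in the other 9 Ctrl and Tet iTKO libraries. Ctrl acute was the highest of the 10 libraries in 10 of the 11 bins, and without it the difference was -0.0039.

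The targeted genes were not called. The bins are larger than the floxed exons, so these values do not check the deletion. Over Tet1 (chr10:62804570-62908996, minus strand, 4 bins), Ctrl was at 0.08 before treatment and 0.18 after acute tamoxifen, and Tet iTKO at 0.03 and -0.02, a difference of -0.12. Over Tet2 (chr3:133463679-133545139, minus strand, 2 bins), Ctrl was at 0.11 and 0.27 and Tet iTKO at 0.10 and 0.12, a difference of -0.083. Over Tet3 (chr6:83362373-83459084, minus strand, 3 bins) the difference was -0.028 and over the reporter locus Gt(ROSA)26Sor -0.0044. No bin of the 9 genes of DNA methylation passed (limma, smallest adjusted p = 0.947), with 4 higher and 5 lower in Tet iTKO and a median of -0.010. The line difference over Tet1 and Tet2 was -0.046 and -0.0070 before treatment and -0.19 and -0.16 after acute tamoxifen. The change between stages passed in no bin of the genome, in a test with 1 library per early group that could miss changes of this size.

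Listed genes of the subcortical maternal complex, of pluripotency and of chromosome segregation were likewise not called. The lists are not those of the study and leave out Nlrp4f and Aire, which it names among its downregulated genes. Among the 6 genes for the subcortical maternal complex of oocytes and early embryos, to which Khdc3 and Ooep belong, 1 was higher and 5 were lower in Tet iTKO, from -0.065 for Khdc3 to 0.11 for Ooep with a median of -0.026. Of 14 pluripotency genes 6 were higher and 8 lower, from -0.14 for Zfp42 to 0.25 for Myc (limma adjusted p = 0.748). Of 16 genes of chromosome segregation and the DNA damage checkpoint 11 were higher and 5 lower, with a median of 0.056. The spindle checkpoint gene Mad2l1 had the lowest difference, -0.30 (limma adjusted p = 0.493), and Cenpa, the centromeric histone, the highest, 0.27 (limma adjusted p = 0.67). In the list of 3 genes that vary among C57BL/6 colonies, Ide was the only one called, and Nnt, the transhydrogenase of mitochondria, differed by -0.080 (limma adjusted p = 0.974). Of the 21 multicopy families counted by symbol, Duxbl had 2 of 3 bins called (66.7%), Speer 3 of 16, olfactory receptors 1 of 620 and Zfp genes 1 of 549, where 0.0709% of all bins were called. With 1 bin each, olfactory receptors and Zfp genes are near that share. The other 17 families had none, among them Vmn1r, Vmn2r and Obox, and Zscan4, of which a window but no bin was called.

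**Figure D5:**
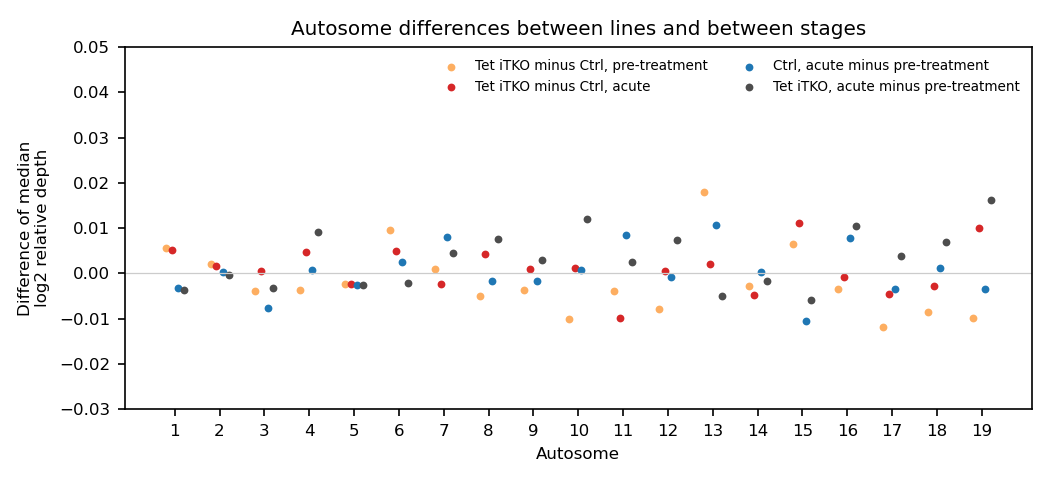
Median log2 relative depth of each autosome as a difference, with the autosome on the horizontal axis and the difference on the vertical axis. Points give Tet iTKO minus Ctrl before treatment and after acute tamoxifen, and acute minus pre-treatment within each line (1 library each). All points lie within 0.02 of 0, and the differences between lines are of the same size as those between stages.

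The autosome medians of the early lines lay close together. The difference of the medians over windows ran from -0.0082 on chromosome 17 to 0.010 on chromosome 13. Chromosome 8 differed by -0.00036 and chromosome 11 by -0.0069. With 2 libraries against 2, the smallest p of the exact permutation test is 0.333, which 9 of 19 autosomes had, and no adjusted value was under 0.704. The test could not have passed, and the values are a description. The SD over the 19 autosomes was 0.0075 between lines before treatment and 0.0051 after acute tamoxifen, against 0.0055 between stages in Ctrl and 0.0063 in Tet iTKO. The autosome values of the 4 libraries did not exceed 0.030 in size.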

How the data were processed

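Low-coverage whole-genome sequencing was done on bulk DNA of sorted mESC. Single-end reads were trimmed by the authors and aligned to mm10 (BWA-mem), with optical duplicates taken out by Picard. The deposited files give a depth signal, the mean coverage of each of 52958 bins, without any scaling to library size and before correction for GC or mappability. The deposited log2 column is the log2 of that depth and was not used. Read numbers are base sums divided by 50, since 96.2% of 3432 low base sums are multiples of 50 (within 1 base). The methods state a longer minimum read length, so the read numbers are approximate.

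Depth was divided by the median autosomal bin depth of the library and summed into windows with at least 250 kb of bins. Intervals with a mean relative depth under 0.25 would have been left out, and none were. The log2 of relative depth plus 0.01 was corrected for GC content by lowess (span 0.3, 3 iterations; statsmodels 0.14.6) and centred. Groups came from the labels. The 2 lines were compared with limma 3.58.1 in R 4.3.3 (two-sided, Benjamini-Hochberg over all windows or bins, adjusted p under 0.05), the 6 long-term Ctrl and Tet iTKO libraries likewise, and differences of differences in 1 fit of these 10 libraries. Dnmt TKO entered only the fit of all 11. Autosomes were compared by exact two-sided permutation tests. Other steps ran in Python 3.11.15 with pandas 2.3.3, numpy 2.4.6 and, for figures, matplotlib 3.10.9. Bins were checked against GRCm38, the mm10 assembly. Gene positions are those of GENCODE M21 and upstream sequences those of RefSeq on GRCm38.p6. At most 298 reads in a median bin limit the precision.

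Named were the genes of the 12 runs of called windows with the largest difference and separate lines, the 10 largest called bins outside them, Tet1, Tet2, Tet3, Gt(ROSA)26Sor and listed genes, of which 1 is not reported here. Intervals and lists were chosen with earlier results of these data known. Simulated counts for this comparison held counting noise alone. In these, 200 of 200 windows changed by 0.15 to 0.4 were recovered with 6 false calls among 4808. Of 200 bins changed by 0.5 to 1, 199 were recovered with 11 false calls among 47924. Called differences reached down to 0.12 in windows and 0.40 in bins, below the simulated sizes, where recovery was not tested. Alternatives covered the depth filter, GC correction, scaling, pseudocount, window size, limma settings, blocks, samples in the fit and each library left out.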

Additional observations from a re-analysis of the deposited data

Results flagged for a closer look

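For 9 of the 25 called windows and 21 of the 34 called bins, the line difference of the early libraries was not that of the long-term libraries by a test of the difference itself (limma on all 10 Ctrl and Tet iTKO libraries, adjusted over all windows or all bins). Each was chosen for its early difference, and the Y chromosome depth and culture time given above separate early from long-term libraries as well. Values are early minus long-term Tet iTKO minus Ctrl differences in log2 relative depth.

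The windows of the Speer array on chromosome 5 had the lowest values, -0.67 (adjusted p = 9.41e-11) for the one with Speer4d and -0.42 (adjusted p = 1.49e-06) for the one with Speer4e, and long-term Ctrl lay far below early Ctrl. The 8 Speer bins were at -1.02, -0.91, -0.92, -1.16, -0.96, -1.01, -1.28 and -1.04 in order of position. The window between Klra1 and Klra2 was at -0.37 (adjusted p = 3.75e-05), with opposite signs in the early and the long-term libraries. Its 2 called bins were at -1.03 and -0.82. The window of the Prl2c genes on chromosome 13 was at -0.21 (adjusted p = 0.0064) and the window with Spata7 and Ttc8 on chromosome 12 at -0.24 (adjusted p = 0.00464), where 1 Ctrl library alone stood apart.

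Values above 0 were found at several loci where early Ctrl lay below the other libraries. They were 0.22 for the window with Nlrp1b (adjusted p = 0.00188), 0.19 for that with Hjurp (adjusted p = 0.0334) and 0.18 for that with Ide (adjusted p = 0.0207). Among bins they were 0.68 and 0.71 for those next to Nlrp1b, 0.68 and 0.53 for those of Ide, 0.84 for Olfr1431 (adjusted p = 7.44e-06), 0.56 for the bin next to Cyp2a5 (adjusted p = 0.031) and 0.55 for Btaf1 (adjusted p = 0.0182). The window with Duxbl2 was at 0.46 (adjusted p = 6.12e-08). The bins of Duxbl2 and Duxbl1 were at 1.14 (adjusted p = 1.12e-08) and 1.12 (adjusted p = 5.15e-08), with opposite signs in the early and the long-term libraries. Where early Ctrl was not the lowest, Gm15446 was at 0.96 (adjusted p = 5.74e-07), with opposite signs as well, and Zfp932 at 0.62 (adjusted p = 0.0127), where the long-term difference did not pass.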

How the results depend on the processing

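The counts of called intervals moved more than the values. The 25 windows became 14 with all 11 libraries in 1 fit, 16 with windows of 1 Mb, and 14 to 35 when 1 early library was left out. The 34 bins became 17 with a relative depth between 0.5 and 1.5, which leaves out the Speer bins, and 18 to 33 with 1 early library left out. The 0 windows whose difference changed from pre-treatment to acute became 2 with a variance trend and robust estimation and 0 to 2 with 1 long-term library left out. The 21 long-term windows became 32 with a variance trend and robust estimation and 12 to 27 with 1 library left out. No direction reversed under the alternatives run among the 15 called windows and 10 called bins that were followed. The other called intervals were not followed for direction. Of 15 windows followed, 8 passed in each alternative that gave a value, and so did 4 of 10 bins (Olfr1431, Cyp2a21-ps and 2 of the Speer array). The Duxbl and Zfp932 bins failed without a single library in several cases, at 0.33 to 0.48. Without GC correction chromosome 8, which was not called, was at 0.0042 and not below 0. The cause of these moves was not tested. Early libraries carry no replicate numbers that could pair them beyond the stage, and with stage as a block 21 of the 25 windows and all 34 bins stayed called. Same-numbered long-term libraries did not deviate together (correlations of 0.027, -0.0064 and -0.0060), so no pairing was taken from the numbers, and the replicate block gave 18 long-term windows. At 230 to 298 reads a bin, single bins limit what can be seen at a gene.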
